A study of Mus musculus with 12 samples.

Results

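The genes described here are 6 chemokines and 1 growth factor that act on macrophages (Mφs) and other leukocytes: Ccl2, Ccl7, Cxcl1, Cxcl2, Cxcl10, Cxcl12 and Csf1. They were taken by name, with earlier results of these data known, and all 7 had a row among the 12975 genes of the count table. Their RNA was followed in ribosome precipitates of enteric glial cells (EGCs) from naive and injured muscularis. In the anti-HA precipitates Ccl2, Ccl7, Cxcl1, Cxcl2 and Cxcl10 were 18.4 to 161 times as high 3 h after injury as in naive tissue, and Csf1 was 1.56 times as high (ratios of pooled CPM, the counts scaled to library totals). Cxcl12 was the exception, with no change that passed the test. The control IgG precipitates showed a rise of the same 5 chemokines, and Ccl2, Cxcl10 and Csf1 were higher in anti-HA than in IgG precipitates at both times.

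All mice carried PLPCreERT2, a tamoxifen-inducible Cre that is directed to EGCs, and Rpl22HA (B6J.129(Cg)-Rpl22tm1.1Psam/SjJ), the RiboTag allele by which Cre switches ribosomal protein Rpl22 to an HA-tagged form. At 10 to 12 weeks of age they all received 2 intraperitoneal injections of tamoxifen (100 µl at 15 mg/ml in Miglyol 812), and they were sacrificed 3 to 4 weeks after the first. At T0 the mice were naive, and at T3 they had undergone intestinal manipulation 3 h earlier, an operation in which the small bowel is handled and which causes muscularis inflammation. The muscularis externa of the small intestine was homogenised, and each homogenate was divided between an anti-HA antibody, which binds the tagged ribosomes (HA), and an isotype control antibody (IgG), which measures RNA that is carried along. There were 6 mice, numbered 1, 2 and 4 at T0 and 1, 3 and 4 at T3, and thus 12 libraries in 4 groups of 3. Mice that share a number at T0 and T3 are different animals.

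Chemokines are small secreted proteins that direct the migration of leukocytes along their gradient. Ccl2 and Ccl7 are ligands of Ccr2, the receptor by which monocytes leave the bone marrow and enter inflamed tissue. Cxcl1 and Cxcl2 act on Cxcr2 of neutrophils, Cxcl10 is an interferon-inducible ligand of Cxcr3, and Cxcl12 is a homeostatic ligand of Cxcr4 that is also bound by the scavenging receptor Ackr3. Csf1 is not a chemokine but the growth factor that monocytes and Mφs need for their survival and differentiation, through the receptor Csf1r. In the muscularis, resident Mφs lie close to the myenteric plexus with its neurons and EGCs.

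By the GENCODE M21 annotation of mm10 (GRCm38) all 7 are protein-coding genes. Ccl2 (chr11:82035571-82037453) and Ccl7 (chr11:82045712-82047525) are neighbours on the plus strand, with 8258 bases between them. Cxcl1 (chr5:90891241-90893115) and Cxcl2 (chr5:90903871-90905938) lie on the plus strand with 10755 bases between them. Cxcl10 (chr5:92346638-92348889) and Csf1 (chr3:107741048-107760469) are on the minus strand and Cxcl12 (chr6:117168535-117181367) on the plus strand. Neighbouring chemokine genes are paralogs, and only reads with unique mapping were counted, so reads that fit several members are missing from these values.

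Proximal promoter sequence is shown for 3 members that rose steeply, Cxcl1, Cxcl2 and Cxcl10, and for Csf1, which rose little. RefSeq promoters (GRCm38.p6, 250 bases before the annotated start) were at hand for 5 of the 7 members, not for Ccl2 and Ccl7. They were searched on both strands for the NF-kB decamer (GGG, a purine, any pair of bases, a pair of pyrimidines and CC), for the AP-1 heptamer (TGACTCA or TGAGTCA) and for the interferon-stimulated response element (ISRE, a pair of GAAA runs with any pair of bases between them). Each line gives the bases from 200 to 40 before the start, 5′ to 3′ on the strand of the gene, and capitals mark matches to the NF-kB decamer on either strand.
Cxcl1: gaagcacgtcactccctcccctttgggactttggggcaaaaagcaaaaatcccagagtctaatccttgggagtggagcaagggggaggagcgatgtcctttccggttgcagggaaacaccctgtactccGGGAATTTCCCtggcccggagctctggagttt
Cxcl2: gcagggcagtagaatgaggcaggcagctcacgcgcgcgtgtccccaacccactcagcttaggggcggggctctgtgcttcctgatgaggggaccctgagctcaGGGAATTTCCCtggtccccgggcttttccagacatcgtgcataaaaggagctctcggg
Cxcl10: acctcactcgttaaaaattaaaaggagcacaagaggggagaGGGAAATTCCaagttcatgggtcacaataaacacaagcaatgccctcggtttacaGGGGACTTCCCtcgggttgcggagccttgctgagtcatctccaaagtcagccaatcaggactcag
Csf1: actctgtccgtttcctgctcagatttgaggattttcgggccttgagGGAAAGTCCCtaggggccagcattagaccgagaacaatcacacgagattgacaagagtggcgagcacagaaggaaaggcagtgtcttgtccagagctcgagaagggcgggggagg
The windows are chr5:90891045-90891205 (plus strand) for Cxcl1, chr5:90903699-90903859 (plus strand) for Cxcl2, chr5:92348929-92349089 (minus strand) for Cxcl10 and chr3:107760509-107760669 (minus strand) for Csf1.

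Cxcl1 and Cxcl2 held the NF-kB decamer at 1 place each, in the same 11 letters, in which matches on both strands overlap. Cxcl10 held it at 2 separate places and Csf1 at 1, while these letters were not found in the 250 bases of Cxcl12. Of all 32851 RefSeq promoters of the same length, 7.25% held the decamer. The AP-1 heptamer was found in Cxcl10 alone among the 5 members, at 74 to 68 bases before the start, against 4.46% of all promoters. The ISRE was also found in Cxcl10 alone, at 213 to 204 bases before the start, against 2.98% of all promoters. A match is a description of the sequence and not a measurement of binding.

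Libraries differed widely in depth, which sets the precision of each value. HA libraries held 1221788 to 2870591 UMI counts (UMIs mark single RNA molecules), IgG T0 libraries 388214 to 1289833, and IgG T3 libraries 88136, 92022 and 248522. The limit set by a count of 0, taken as 3 counts, was between 1.05 and 34.04 CPM, and limits and intervals of this kind cover counting error only. Rpl22, which carries the tag, had means of 83.3 ± 9.02 (SD, n = 3) and 65.2 ± 5.89 CPM with anti-HA, naive and injured, and of 23.8 ± 7.60 and 24.4 ± 12.0 CPM with IgG. The summed level of 12 glial markers was 4024 to 5529 CPM in HA libraries and 185 to 255 CPM in IgG T0 libraries. In IgG T3 it was 1067, 935 and 233 CPM in animals 1, 3 and 4. HA libraries were not free of other cells: 10 smooth muscle markers summed to 16952 to 32235 CPM there, against 52803 to 82404 CPM in IgG, and 3 markers of interstitial cells of Cajal were higher in HA (1170 to 3366 CPM) than in IgG (177 to 760 CPM). The part of these differences in the results below was not tested.

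Ccl2, the principal monocyte attractant, was counted 102, 19 and 45 times in HA T0 and 1103, 2298 and 988 times in HA T3. These counts correspond to 39.2, 10.6 and 15.7 CPM in naive animals 1, 2 and 4 and to 903, 1537 and 769 CPM in injured animals 1, 3 and 4. In IgG T0 each library held a single Ccl2 count (2.58, 1.71 and 0.775 CPM), while IgG T3 held 57, 41 and 67 counts (647, 446 and 270 CPM). The 4 groups did not overlap, and their order was HA T3, IgG T3, HA T0 and IgG T0. In HA libraries Ccl2 rose with a log2 fold change of 5.83 (SE 0.64, adjusted p = 0.00186), a ratio of pooled CPM of 48.0 (95% counting interval 41.1 to 56.4). The IgG libraries gave a log2 fold change of 8.04 (SE 0.53, adjusted p = 4.69e-07). The IgG ratio of 290 rests on 3 counts at T0, with a counting interval of 97.6 to 1421.

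Ccl7, a second ligand of Ccr2, was near the limit of detection in naive tissue, with 4, 3 and 3 counts in HA T0 (1.54, 1.68 and 1.05 CPM) and 1, 1 and 2 in IgG T0 (2.58, 1.71 and 1.55 CPM). After injury it reached 42, 57 and 42 counts in HA (34.4, 38.1 and 32.7 CPM) and 8, 6 and 16 counts in IgG (90.8, 65.2 and 64.4 CPM). Both antibodies thus gave a rise without overlap, and the injured HA libraries agreed closely among themselves (35.1 ± 2.77 CPM, n = 3). The log2 fold change was 4.87 in HA (SE 0.37, adjusted p = 2.38e-09) and 5.10 in IgG (SE 0.59, adjusted p = 8.89e-05). All 3 injured HA libraries lay under all 3 injured IgG libraries, the only member for which this was so.

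The neutrophil attractant Cxcl1 was counted 4, 1 and 1 times in HA T0 (1.54, 0.559 and 0.348 CPM), and 53, 159 and 45 times in HA T3 (43.4, 106 and 35.0 CPM). IgG T0 libraries held 0, 0 and 5 counts (3.88 CPM in animal 4), and IgG T3 libraries held 5, 12 and 16 (56.7, 130 and 64.4 CPM). Levels of HA and IgG overlapped at each time, and those of T0 and T3 did not overlap with either antibody. The log2 fold change was 6.38 in HA (SE 0.63, adjusted p = 2.88e-05) and 5.06 in IgG (SE 0.72, adjusted p = 0.000531). Without the IgG T0 library of animal 4, which held all 5 counts, the IgG value was 7.50.

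Cxcl2, its neighbour and also a Cxcr2 ligand, had 6, 1 and 1 counts in HA T0 (2.30, 0.559 and 0.348 CPM) and 245, 320 and 146 counts in HA T3 (201, 214 and 114 CPM). IgG T0 held 0, 1 and 1 counts (up to 1.71 CPM), and IgG T3 held 17, 12 and 16 (193, 130 and 64.4 CPM). HA and IgG again overlapped at each time, and T0 and T3 did not. Of the 7 members it had the highest fold change in HA, 7.50 on the log2 scale (SE 0.42, adjusted p = 2.83e-09) and a pooled ratio of 161 (counting interval 81.4 to 375). In IgG the log2 fold change was 6.64 (SE 0.69, adjusted p = 3.37e-05), against 2 counts at T0, so that the pooled ratio of 119 has a counting interval of 31.0 to 1010.

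**Figure D1:**
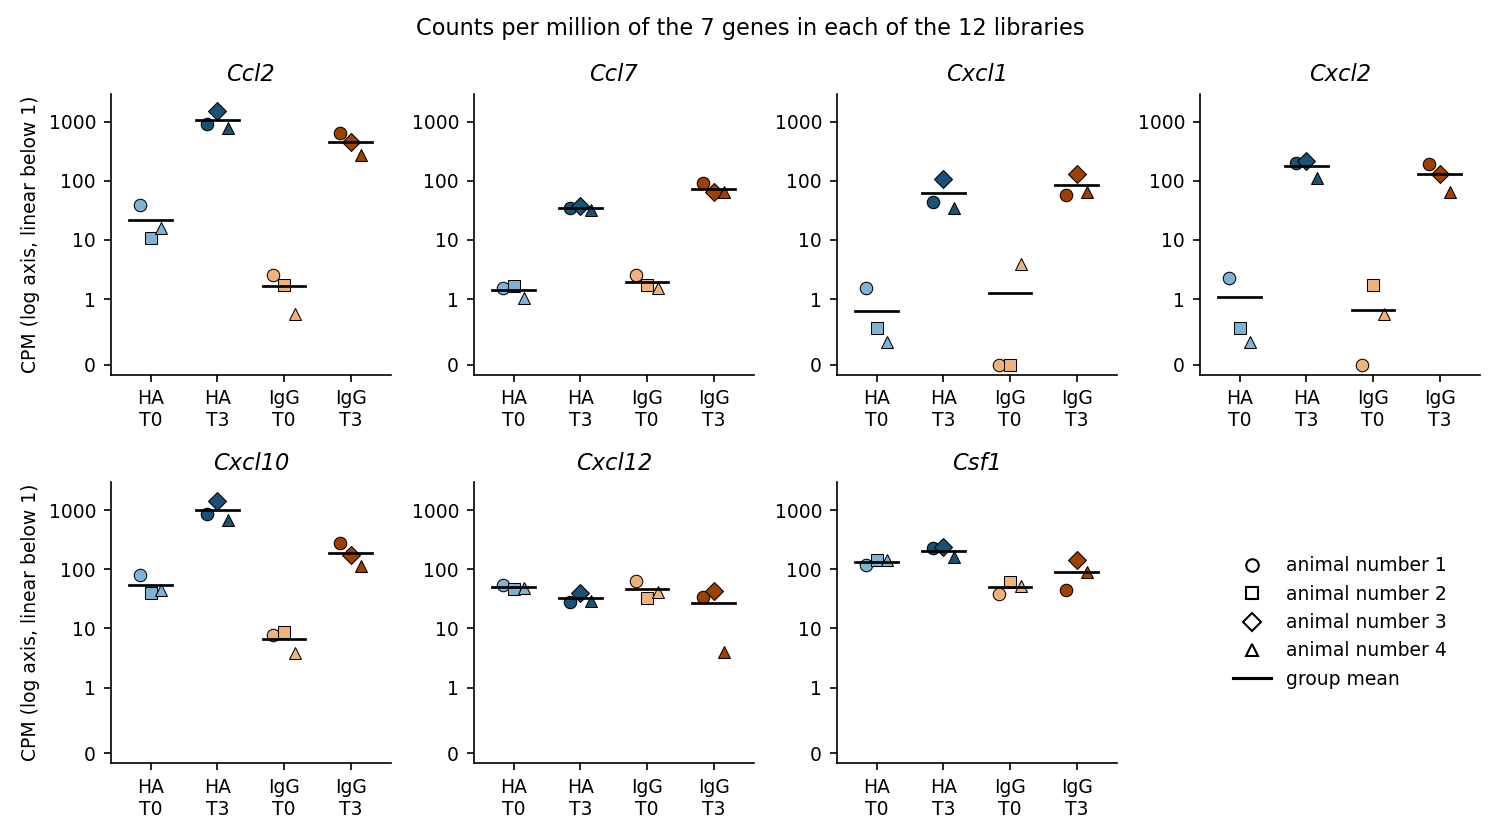
CPM of each of the 7 genes (vertical axis, logarithmic above 1 and linear below) in the 12 libraries, grouped by antibody and time; each symbol is a library, its shape the number of the animal, and the bar the mean of 3. For Ccl2 and Cxcl10 the 4 groups do not overlap, for Cxcl1 and Cxcl2 HA and IgG overlap at each time, and Cxcl12 stays between 4.02 and 64.4 CPM throughout.

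Cxcl10, the ligand of Cxcr3, was clearly detected in naive HA libraries, with 210, 70 and 127 counts (80.6, 39.1 and 44.2 CPM). It rose to 1074, 2178 and 879 counts in HA T3 (879, 1456 and 684 CPM). IgG libraries held 3, 5 and 5 counts at T0 (7.73, 8.57 and 3.88 CPM) and 25, 16 and 28 at T3 (284, 174 and 113 CPM). Like Ccl2, its 4 groups did not overlap and followed the order HA T3, IgG T3, HA T0, IgG T0. The log2 fold change was 4.45 in HA (SE 0.42, adjusted p = 0.000171) and 4.81 in IgG (SE 0.50, adjusted p = 3.74e-05).

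Naive animal 1 had the highest HA level of both Ccl2 and Cxcl10. The same HA library held 141 counts of Ccl5, a chemokine for T cells and monocytes, against 26 and 19 in naive animals 2 and 4, and 14 counts of the interferon-inducible Cxcl9 against 0 and 0. The IgG library of this animal was also the highest of IgG T0 for Ccl5, with 41 counts against 10 and 10 (106, 17.1 and 7.75 CPM). Without the HA library of naive animal 1 the log2 fold change of Ccl2 in HA was 6.59 and that of Cxcl10 was 4.86, so both values were higher rather than lower. Injured animal 3 had the highest HA level of Ccl2, Cxcl1, Cxcl2 and Cxcl10, whereas among IgG T3 libraries animal 1 was highest for Ccl2, Cxcl2 and Cxcl10.

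The homeostatic chemokine Cxcl12 was counted 139, 83 and 141 times in HA T0 (53.4, 46.4 and 49.1 CPM) and 34, 59 and 38 times in HA T3 (27.8, 39.5 and 29.6 CPM). IgG T0 held 25, 19 and 53 counts (64.4, 32.6 and 41.1 CPM) and IgG T3 only 3, 4 and 1 (34.0, 43.5 and 4.02 CPM). HA T3 lay under HA T0 without overlap in CPM, whereas the IgG groups overlapped with each other and with HA. The log2 fold change, −0.35 in HA (SE 0.23, adjusted p = 0.246) and −1.15 in IgG (SE 0.67, adjusted p = 0.345), did not pass the test. The HA value depended on scaling: with library totals in place of TMM scaling it was −0.61 with an adjusted p of 0.0390. That scaling moved the median of all genes in the same comparison from −0.02 to −0.28, and its calls from 1765 higher and 1422 lower to 1208 higher and 2641 lower.

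The growth factor Csf1 was counted in every library and differed least with injury among the members that rose. HA T0 held 303, 254 and 412 counts (116, 142 and 144 CPM) and HA T3 held 276, 351 and 208 (226, 235 and 162 CPM), without overlap. IgG libraries held 15, 36 and 67 counts at T0 (38.6, 61.7 and 51.9 CPM) and 4, 13 and 22 at T3 (45.4, 141 and 88.5 CPM), with overlap. The log2 fold change was 0.90 in HA (SE 0.19, adjusted p = 0.000899) and 0.82 in IgG (SE 0.42, adjusted p = 0.280). The rise in HA passed the test under each scaling, with a log2 fold change of 0.63 when library totals were used.

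Read as a list, 6 of the 7 members rose in HA T3 against T0, and none fell. Of all 9441 genes tested 33.8% were called in this comparison, and 18.7% were called higher. The median log2 fold change of the members was 4.87, against −0.02 over all genes tested. In CPM, 6 members lay higher at T3 without overlap, as did 15.6% of all genes, and Cxcl12 lay lower without overlap, as did 35.2%. In IgG T3 against T0, 5 of the 7 rose and none fell, where 5.46% of 5219 genes were called and 4.43% were called higher. These 5 also did not overlap in CPM, as was the case for 13.4% of all genes on the higher side. The glial sums given above were higher in the IgG T3 libraries of animals 1 and 3 than in IgG T0, and that of animal 4 lay within the range of IgG T0; 1 of 4 glial markers tested in IgG rose. Ccl2, Ccl7, Cxcl2, Cxcl10 and Cxcl12 were lowest in the IgG T3 library of animal 4, and Cxcl1 and Csf1 in that of animal 1, which had the highest glial sum and also the highest sum of monocyte and neutrophil markers (284 CPM). The part of RNA from these cells in the IgG rise was not tested.

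**Figure D2:**
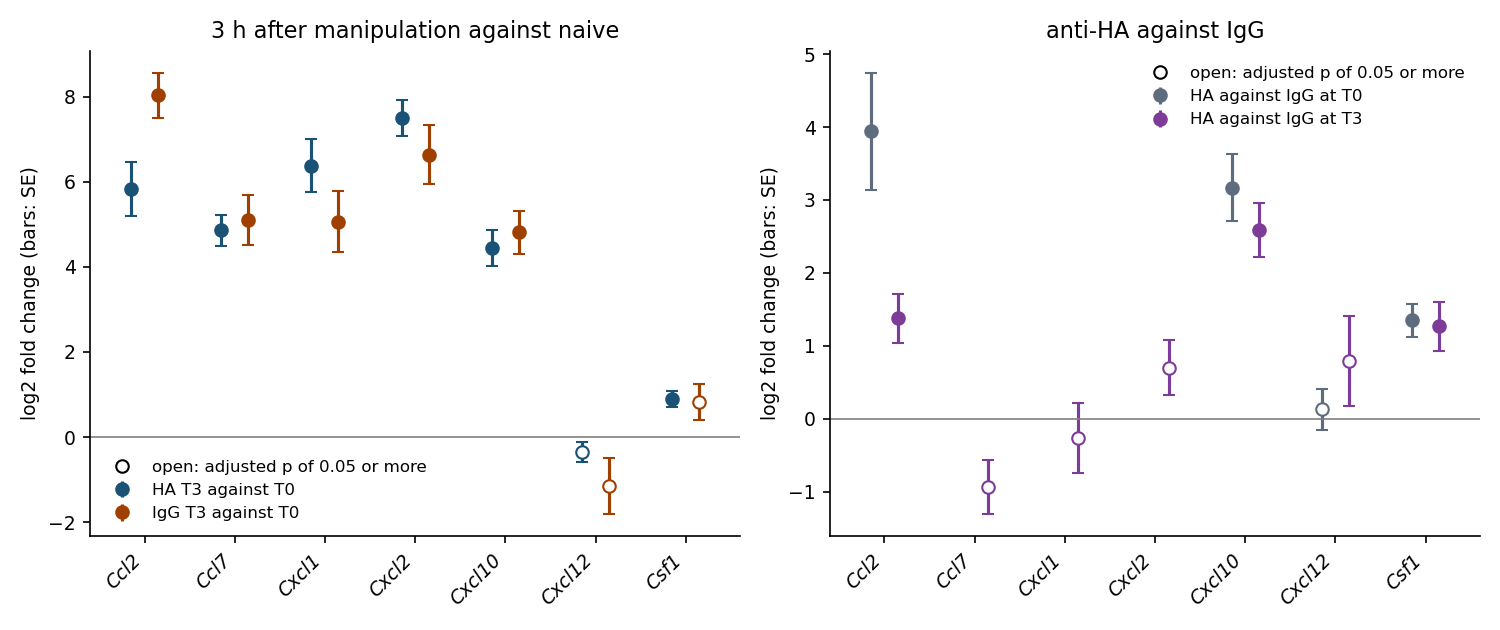
Log2 fold change of each gene with its SE (edgeR), for T3 against T0 with each antibody on the left and for HA against IgG at each time on the right; filled points passed an adjusted p of 0.05. Ccl2, Ccl7, Cxcl1, Cxcl2 and Cxcl10 lie between 4.45 and 8.04 on the left with both antibodies, while on the right Ccl2, Cxcl10 and Csf1 are filled at both times; Ccl7, Cxcl1 and Cxcl2 have no point at T0 since their counts were too low to be tested.

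The comparison of HA with IgG asks which of these RNAs were enriched on tagged ribosomes over RNA that was carried along. In naive muscularis, 3 members were higher in HA: Ccl2 with a log2 fold change of 3.94 (SE 0.80, adjusted p = 0.00251), Cxcl10 with 3.17 (SE 0.46, adjusted p = 0.000171) and Csf1 with 1.35 (SE 0.23, adjusted p = 0.000530). Cxcl12, at 0.13 (SE 0.28, adjusted p = 0.761), did not pass the test, and the counts of Ccl7, Cxcl1 and Cxcl2 were too low to be tested. Thus 3 of 4 members tested were called, where 30.3% of 9823 genes were called and 16.0% were called higher. Ccl2, Cxcl10 and Csf1 did not overlap between HA and IgG at T0, as was the case for 24.7% of all genes on the higher side. Of 12 glial markers 11 were tested, and these 11 were all higher in HA, with a median of 4.24.

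After injury the same 3 members were higher in HA than in IgG. The log2 fold change was 2.58 for Cxcl10 (SE 0.37, adjusted p = 9.60e-05), 1.38 for Ccl2 (SE 0.34, adjusted p = 0.00656) and 1.27 for Csf1 (SE 0.34, adjusted p = 0.0113). Cxcl2 had 0.70 (SE 0.37, adjusted p = 0.196), Cxcl12 0.80 (SE 0.62, adjusted p = 0.386), Cxcl1 −0.26 (SE 0.49, adjusted p = 0.745) and Ccl7 −0.93 (SE 0.37, adjusted p = 0.0829), and none of these passed the test. Calls at T3 therefore covered 3 of 7 members, where 21.9% of 7200 genes were called and 11.8% were called higher. Ccl2, Cxcl10 and Csf1 lay above IgG without overlap, as did 19.4% of all genes, and Ccl7 lay below without overlap, as did 16.4%. Of 11 glial markers tested at T3, 9 were higher in HA, with a median of 2.92, against 0.02 over all genes. The calls of Ccl2 and Csf1 leaned on single libraries: without the HA library of animal 3 they had adjusted p-values of 0.0783 and 0.0582, and without that of animal 1 Csf1 had 0.0527.

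Since both precipitates came from the same homogenate, they were also compared within each injured animal. The HA level of Cxcl10 was 3.10, 8.38 and 6.07 times the IgG level in animals 1, 3 and 4. For Ccl2 the ratios were 1.40, 3.45 and 2.85, and for Csf1 4.98 (4 IgG counts, 95% counting interval 1.92 to 18.4), 1.66 and 1.83. All 9 of these ratios were above 1, which the lack of overlap between HA and IgG at T3 already required. The 95% counting interval of Csf1 in animal 3 (0.959 to 3.15) included 1. Ccl7 had ratios of 0.379, 0.585 and 0.508 and Cxcl1 of 0.765, 0.815 and 0.544, all below 1. The lack of overlap required this for Ccl7 but not for Cxcl1. The counting intervals of all 3 Cxcl1 ratios and that of Ccl7 in animal 3 (0.253 to 1.66) included 1. The ratios of Cxcl2 were 1.04, 1.64 and 1.77, and those of Cxcl12, which rest on 1 to 4 IgG counts, were 0.818, 0.908 and 7.35.

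**Figure D3:**
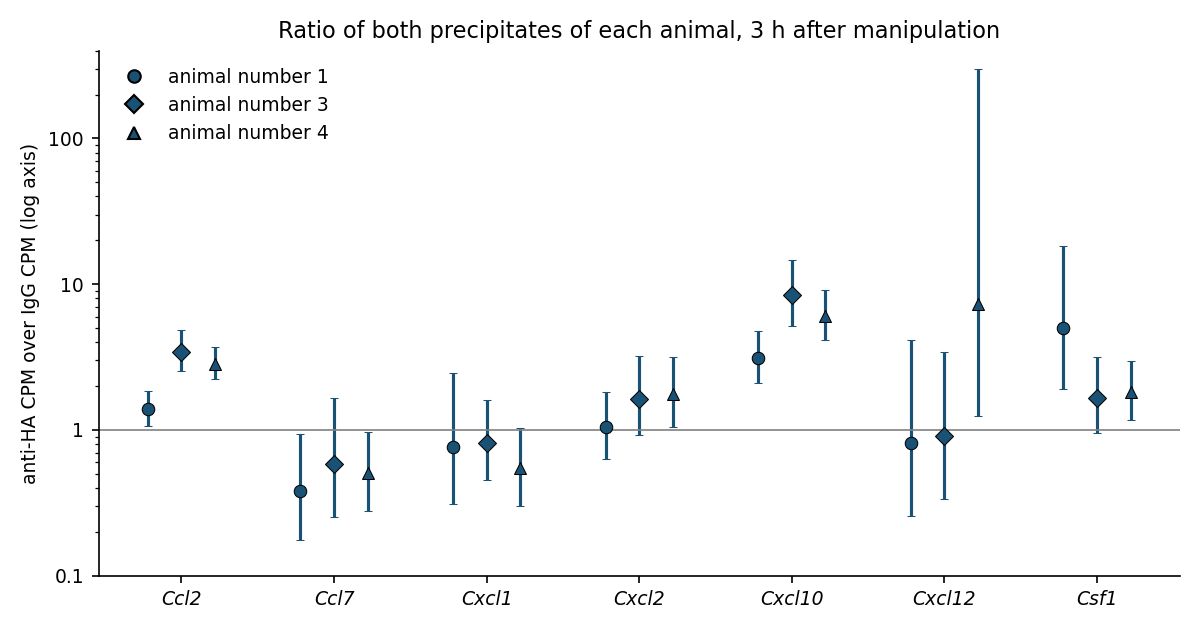
Ratio of HA to IgG CPM within each of the 3 injured animals (vertical axis, logarithmic), for each gene, with 95% intervals that cover counting error only. Cxcl10 lies between 3.10 and 8.38 in all 3 animals, Ccl7 between 0.379 and 0.585, and the wide interval of Cxcl12 in animal 4 belongs to a single IgG count.

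Ratios between genes within a library do not depend on the scaling of libraries, and they differed with antibody and time. These pairs were chosen after their values were seen, and no test was run on them. The count of Ccl2 over that of Cxcl10 was 0.486, 0.271 and 0.354 in HA T0 and 1.03, 1.06 and 1.12 in HA T3. In IgG T3 it was 2.28, 2.56 and 2.39, so that HA and IgG were far apart after injury. The 3 injured animals agreed closely in HA. The IgG values rest on 16 to 28 Cxcl10 counts, too few to judge how closely the animals agreed. IgG T0 libraries held a single Ccl2 count each, which gives ratios of 0.333, 0.200 and 0.200 with little precision. The neighbours Ccl2 and Ccl7 also kept different proportions: 26.3, 40.3 and 23.5 Ccl2 counts per Ccl7 count in HA T3, against 7.13, 6.83 and 4.19 in IgG T3. For Cxcl2 over Cxcl1 the groups overlapped, with 4.62, 2.01 and 3.24 in HA T3 and 3.40, 1.00 and 1.00 in IgG T3. The proportions of Ccl2 to Cxcl10 and of Ccl2 to Ccl7 thus separated HA from IgG after injury, whereas that of Cxcl2 to Cxcl1 did not. For Ccl2 to Ccl7 this had to follow, since after injury Ccl2 lay above IgG and Ccl7 below it without overlap.

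**Figure D4:**
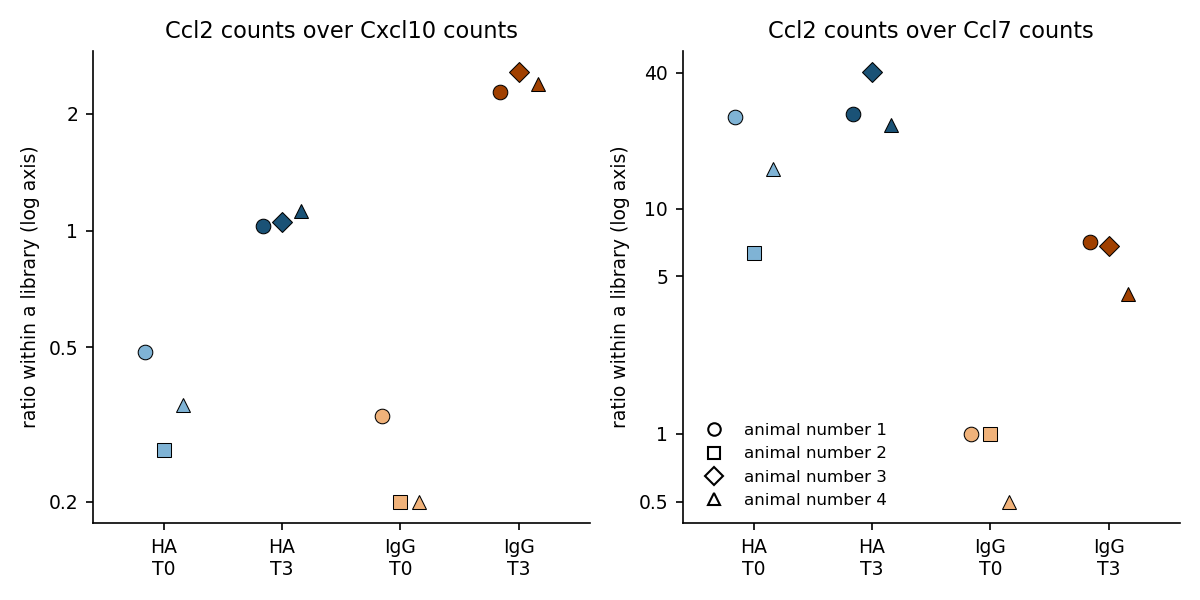
Counts of Ccl2 divided by counts of Cxcl10 (left) and of Ccl7 (right) within each library (vertical axes, logarithmic), by antibody and time. On the left the injured HA libraries lie at 1.03 to 1.12 and the injured IgG libraries at 2.28 to 2.56; on the right they lie at 23.5 to 40.3 and 4.19 to 7.13.

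The interaction of antibody and time asks whether injury changed a gene by another factor in one precipitate than in the other. None of the 7 members passed, and 34 of all 10314 genes (0.330%) did. The members also gave 0 calls with DESeq2. At an unadjusted p under 0.05 there were 0 of 7 members and 1082 of all 10314 genes. Ccl2 came nearest, with an interaction of −2.26 on the log2 scale (SE 1.09, unadjusted p = 0.0562, adjusted p = 0.493), that is, a smaller fold change in HA than in IgG. The values of the others ran from −0.32 for Ccl7 to 1.25 for Cxcl1, with SEs of 0.41 for Csf1 to 1.44 for Cxcl2, so that the error of the difference was wide for most members.

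Other ligands of the same families are given as a description. Members and lists were chosen with earlier results of these data known, so a contrast between them is no test. Of 19 other CC chemokines listed, 11 had a row in the table and 6 were tested in HA T3 against T0. Ccl4 and Ccl3, attractants of Mφs and T cells, rose, with log2 fold changes of 5.32 (adjusted p = 2.44e-08) and 5.04 (adjusted p = 2.65e-06). Their counts went from 3, 1 and 1 to 26, 48 and 28 for Ccl4 and from 2, 0 and 1 to 15, 28 and 10 for Ccl3. Neither was higher in HA than in IgG at T3, with log2 fold changes of −0.15 and −0.44. Ccl5, Ccl6, Ccl25 and Ccl27a did not pass the test. The median over these 6 was 0.37, against −0.02 over all genes.

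Ccl6 was lower in HA than in IgG at T0, by −1.24 on the log2 scale (adjusted p = 0.00615), and Ccl12, another Ccr2 ligand, was lower in HA at T3, by −1.99 (adjusted p = 0.0357) on 8, 9 and 3 counts against 3, 2 and 4. No other CC chemokine was called with either antibody or at either time.

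Of 13 other chemokines of the CXC, CX3C and XC families, 7 had a row, 4 were tested in HA T3 against T0 and none of these 4 was called, with log2 fold changes from −0.53 to 0.56. The tethered ligand of Cx3cr1, Cx3cl1, and the membrane-bound ligand of Cxcr6, Cxcl16, were both called between the precipitates at T0. They were higher in HA than in IgG, with log2 fold changes of 1.64 (adjusted p = 0.0465) and 1.17 (adjusted p = 0.00953). At T3 Cx3cl1 had 78, 67 and 76 counts in HA and 0, 0 and 1 in IgG, a pooled ratio of 23.7 (counting interval 4.21 to 939) with an adjusted p of 0.000658. Cxcl16 was not called at T3, with 8 IgG counts in all (log2 fold change 0.74, adjusted p = 0.421). In CPM, Cxcl16 lay lower in HA T3 than in HA T0 without overlap, as did 35.2% of all genes. Cx3cl1 was not tested in IgG T3 against T0. Its counts of 0 in the IgG T3 libraries of animals 1 and 3 stand for up to 34.0 and 32.6 CPM. In IgG T0 it had 25.8, 44.6 and 6.20 CPM, so depth does not allow a comparison of single libraries. Pooled over each group, IgG held 1 count at T3 and 44 at T0. This is a ratio of 0.120, with an interval of 0.00297 to 0.704 that covers counting error only. Cxcl14 was lower in HA than in IgG at T0, by −0.79 on the log2 scale (adjusted p = 0.0261).

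Among 5 other colony stimulating and myeloid growth factors, 4 were tested in HA and 2 rose, where 18.7% of all genes were called higher. Csf3, which drives the production of neutrophils, went from 0, 1 and 0 counts in HA T0 to 23, 35 and 16 in HA T3, with a log2 fold change of 6.72 (adjusted p = 1.07e-07). In IgG it went from 0 in all 3 libraries to 7, 6 and 13 counts, at least 45.7-fold higher against a floor of 3 counts over the group, with an adjusted p of 0.000183. At T3 Csf3 was lower in HA than in IgG, by −1.67 on the log2 scale (adjusted p = 0.0104), the direction also seen for Ccl7. Il34, the alternative ligand of Csf1r, rose in HA with a log2 fold change of 1.27 (adjusted p = 0.0445), with 52, 17 and 16 counts at T0 and 41, 23 and 30 at T3, and the groups overlapped in CPM. Kitl was lower in HA than in IgG at both times, by −2.64 at T0 and −2.03 at T3 on the log2 scale.

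**Figure D5:**
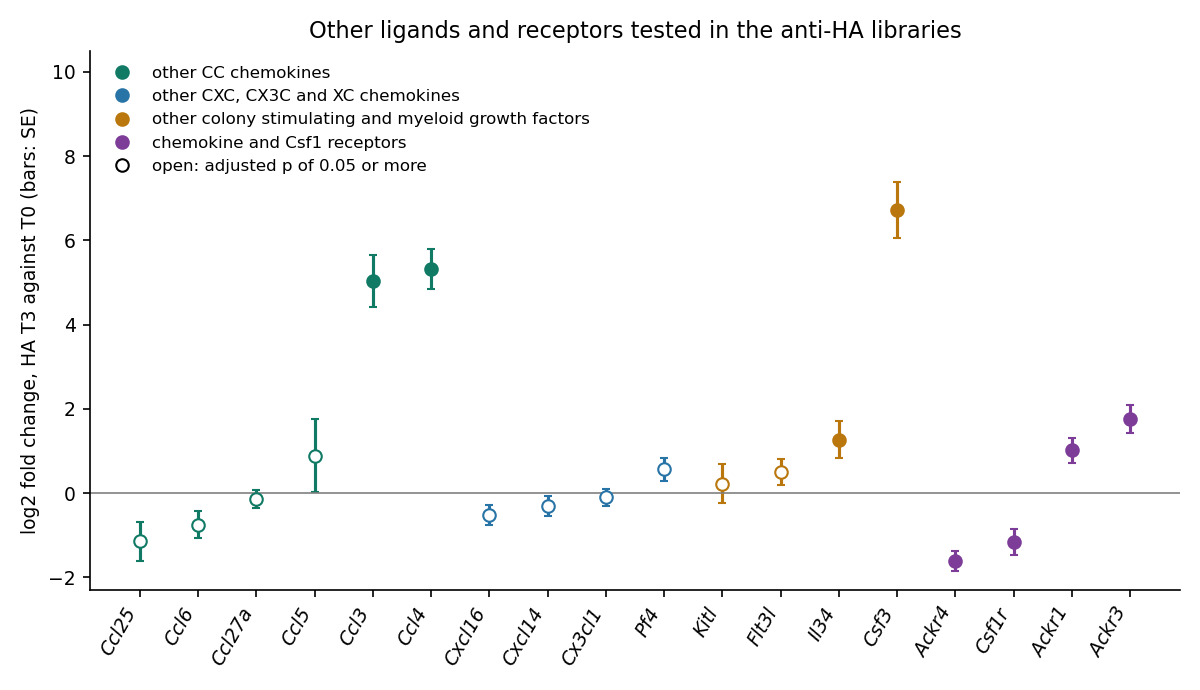
Log2 fold change with its SE for HA T3 against T0 (vertical axis) of the 18 other ligands and receptors that were tested, coloured by list; filled points passed an adjusted p of 0.05. Csf3, Ccl4 and Ccl3 lie between 5.04 and 6.72, and the receptors Ackr4 and Csf1r lie below 0.

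Receptors were mostly rare. Of 23 listed, 9 had a row and 4 were tested in HA T3 against T0, of which 2 rose and 2 fell. Over all genes 33.8% were called in that comparison. Ackr3, the scavenging receptor of Cxcl12, went from 50, 44 and 35 counts to 44, 116 and 52, a log2 fold change of 1.76 (adjusted p = 0.000928). It did not overlap in CPM, as was the case for 15.6% of all genes on the higher side. In IgG Ackr3 also lay higher without overlap (25.7 to 35.7 CPM at T0, 36.2 to 54.3 at T3), as did 13.4% of all genes. That change did not pass the test (0.51, adjusted p = 0.568), nor did Ackr3 in HA against IgG at T3 (0.36, adjusted p = 0.636). Ackr1, which binds inflammatory chemokines without signalling, had a log2 fold change of 1.01 (adjusted p = 0.0146). At T3 its counts were 23, 33 and 18 in HA and 0 in all IgG libraries, at least 2.64-fold higher in HA against a floor of 3 counts over the group (adjusted p = 0.0147). Ackr4, a scavenging receptor of homeostatic CC chemokines, fell with both antibodies, by −1.61 in HA (adjusted p = 3.71e-05) and −1.69 in IgG (adjusted p = 0.0127) on the log2 scale, and was lower in HA than in IgG at both times.

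Csf1r, the receptor of Csf1 and a marker of Mφs, fell in HA from 93, 83 and 78 counts to 13, 28 and 13, by −1.17 on the log2 scale (adjusted p = 0.00666). In IgG the log2 fold change of Csf1r was similar, at −0.97, but did not pass the test (adjusted p = 0.342). Ccr2 and Cx3cr1, receptors of monocytes and Mφs, were lower in HA than in IgG at T0, with log2 fold changes of −2.23 and −1.57. The summed level of 14 Mφ markers was 470 to 844 CPM in HA T0 and 221 to 384 CPM in HA T3, and 801 to 1220 and 695 to 889 CPM in IgG T0 and T3. All 8 Mφ markers tested in HA had a negative log2 fold change, and 4 of them passed, where 1422 of 9441 genes were called lower. In tissue-wide precipitates, fewer cells of a type and less RNA per cell cannot be told apart.

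Markers of monocytes and neutrophils, by contrast, summed to 15.0 to 26.8 CPM in HA T0 and 35.8 to 127 CPM in HA T3, with 48.0 to 55.0 and 97.8 to 284 CPM in IgG. This list had rows for only 5 of its 11 genes, and S100a8 and S100a9 were at 0 in all IgG T0 libraries. In HA T3 against T0, 2 of its genes were tested and 1 rose, and in IgG none was high enough to be tested. Ccr2, which is on this list, did not follow the sum. It had 18 counts in HA T0 and 6 in HA T3 (means of 2.79 and 1.52 CPM). In IgG it had 26 and 1 (means of 12.8 and 3.78 CPM). Its change with time was not tested, and T0 and T3 overlapped in CPM with both antibodies. The summed level was highest in injured animal 1 with both antibodies. In IgG T3 this animal was also the highest for Ccl2, Ccl7, Cxcl2 and Cxcl10, while in HA T3 animal 3 was the highest for Ccl2, Ccl7, Cxcl1, Cxcl2, Cxcl10, Cxcl12 and Csf1. Fibroblast markers fell from a range of 1061 to 1399 CPM in HA T0 to 315 to 552 CPM in HA T3, and mesothelial markers from 394 to 560 to 223 to 234 CPM. Markers of interstitial cells of Cajal went from 2604 to 3366 CPM in HA T0 to 1170 to 1533 CPM in HA T3. Of these 3 markers 2 were called lower, where 33.8% of all genes were called in either direction. Neuronal markers summed to 1176 to 1382 CPM in HA T0 and 1296 to 2245 CPM in HA T3. Of 11 tested, 4 were called higher and none lower, where 18.7% of all genes were called higher. The part of these cells in the rise of the chemokines was not tested.

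For each member the 3 genes with the most similar pattern over the 12 libraries are given as a description, by Pearson's r of log2 CPM among 10314 genes. The libraries share 6 homogenates and fall into 4 groups that also differ in depth. Ccl2 was most like the metallothioneins Mt2 and Mt1 (0.984 and 0.979) and Egr1 (0.976). Ccl7 was most like Fosb (0.990), Csf3 (0.988) and Fos (0.983). Cxcl1 was most like Icam1 (0.987), Rnd1 (0.979) and Irf1 (0.977), and Cxcl2 like Egr3, Egr1 and Gadd45b (all 0.988). Several of these are immediate early genes, which are transcribed within minutes of stimulation.

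Cxcl10 was most like Adamts1 (0.990), Emp1 (0.985) and Cyr61 (0.982). The values were lower for Csf1, with Kank4 (0.971), Chil1 (0.968) and BC022687 (0.963), and for Cxcl12, with G6pdx (0.960), Tmem80 (0.947) and Efcab14 (0.943). Between members, r was 0.967 for Ccl2 with Cxcl10 and 0.959 to 0.962 among Ccl7, Cxcl1 and Cxcl2. It was 0.903 for the neighbours Ccl2 and Ccl7, and 0.777 for Ccl7 with Cxcl10. Cxcl12 had r between −0.494 and 0.0597 with every other member.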

How the data were processed

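Ribosome-bound RNA was measured in 12 libraries, 3 per group of antibody and time. Per the labels, the libraries were made with bulk MARS-seq, a 3′ method with UMIs, in pools of up to 8 samples with similar qPCR values, whose make-up is not given in the sources used here. The authors used cutadapt for trimming and STAR 2.4.2a for mapping to mm10, and counted uniquely mapped reads with HTSeq over 1000 bases upstream to 100 bases downstream of each 3′ end. DESeq2 1.26.0 is also named in the submitters' processing notes. The authors deposited UMI counts, not normalised, and strand use in counting is not stated in the sources used here. Values of genes with an overlapping antisense gene are therefore uncertain. Counts of 3′ ends do not scale with transcript length.

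CPM were computed from library totals. Tests used the quasi-likelihood method of edgeR 4.0.16 under R 4.3.3 (robust, with TMM scaling, after filterByExpr) over all genes, with Benjamini-Hochberg adjustment and a threshold of 0.05. Contrasts of 2 groups used 6 libraries and the interaction all 12, without covariates. SEs were derived from the F statistic. The functions were tested on simulated data. A count of 0 was read as up to 3 counts, and intervals are exact binomial intervals of 95%.

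HA and IgG libraries of 1 animal are paired by their homogenate. Their deviations from the group means correlated at 0.29 to 0.31 at T0 and 0.16 to 0.21 at T3 (6734 genes). No HA and IgG libraries of different animals at the same time did so above 0. Since the deviations within a group of 3 sum to 0, these lower values follow in part from the higher ones and are no separate evidence of pairing. With the same antibody, T0 and T3 libraries, which come from different animals, correlated at −0.21 to 0.24. The same-animal values of 0.16 to 0.21 at T3 lay within that range. Pairs of replicates differed beyond sampling noise (chi-square over degrees of freedom of at least 3.16), so none was a repeat of another.

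Named genes were the 7 members, listed ligands, growth factors and receptors that passed the threshold (at most 8 per list, by p), the 3 genes most like each member by log2 CPM with a prior count of 2, and Rpl22. Not every gene that this rule selects is reported here. The members and lists were chosen with earlier results of these data known. Alternatives were RLE scaling, library totals, no filter, at least 5 counts in 1 library, DESeq2 1.42.0, a replicate block, a joint fit of the 12 libraries, a minimum log2 fold change of 1, thinning to the shallowest library and leaving out each library.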

Additional observations from a re-analysis of the deposited data

How the results depend on the processing

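Of 79 recomputed counts of members called, 75 stayed within 1.5 times the reported count. These include the interaction, where 12 fits without 1 library and 8 other settings gave 0 members against 0, so that no factor applies. Thinning to 88136 counts per library left few members to test and gave 3 members called of 3 tested in HA T3 against T0, 2 of 2 in IgG T3 against T0 and 1 of 4 in HA against IgG at T3; at T0 it left no member to test. Leaving out 1 library gave 6 members in each case for HA, 5 for IgG and 3 for HA against IgG at T0, but 1 to 4 for HA against IgG at T3, with 1 without the HA library of animal 3. Cxcl2 passed in that comparison without a filter (log2 fold change 0.95, adjusted p = 0.0311), with at least 5 counts in 1 library (0.89, 0.0468) and without the IgG library of animal 1 (1.19, 0.0432). A minimum log2 fold change of 1 removes Csf1 in HA by construction.

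With a replicate block the members called were 6, 5, 3, 3 and 0 in the 5 comparisons, as without it; the block was by animal for the antibody and the interaction, and by number, which different animals share, for time. It raised the interaction calls over all genes from 34 to 156. Other counts over all genes that moved by over 1.5 times were, for the interaction, 20 with RLE (17 higher, 3 lower), 8 with library totals (6 and 2), 83 with DESeq2 (54 and 29), 13 after thinning and 5 to 95 without 1 library. For IgG T3 against T0 (285) they were 519 without a filter, 704 in the fit of all 12 libraries, 141 after thinning and as few as 167 without 1 library. For HA T3 against T0 (3187) they were 1723 with a minimum log2 fold change of 1 and 552 after thinning. For HA against IgG they were 629 after thinning at T0 (2980), and 479 after thinning and as few as 849 without 1 library at T3 (1578).

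No member that had passed a test changed sign. Without 1 library, Cxcl12 in HA against IgG at T0 ranged from −0.036 (without IgG animal 2) to 0.41, and Cxcl1 at T3 from −1.004 to 0.16 (without IgG animal 3). In the interaction the ranges were −3.09 (without IgG T0 animal 4) to 2.00 for Cxcl1, −0.72 to 0.10 for Cxcl10, −0.0092 (without IgG T3 animal 4) to 1.50 for Cxcl12 and −0.094 (without IgG T3 animal 1) to 0.38 for Csf1. Cxcl10 was above 0 there without HA T0 animal 1 (0.077), without IgG T0 animal 4 (0.10) and without IgG T3 animal 1 (0.027). Csf1 was below 0 with library totals (−0.19) and after thinning (−0.27). The cause was not tested. The IgG T3 libraries, where 1 count is 4.02 to 11.3 CPM, limit the precision of each comparison that uses them.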
